A study of Mus musculus with 9 samples.

Results

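The mRNA of 10 genes that build, feed or restrain the inflammasome was followed in mouse kidney. The genes were Nlrp3, Pycard, Casp1, Casp4, Il1b, Il1a, Il18, Il1rn, Gsdmd and Txnip. They were taken by symbol from a table of 55385 genes, all 10 had a row, and all 10 were among the 21392 genes that passed the filter on low counts. Il1rn reached the filter's level of 0.134 CPM (counts relative to library size) in 1 Control library only, and Il1a in 2. Both reached it in all HN and PEC libraries and passed through those. The kidneys came from male mice labelled C57BL/6 (C57BL/6J in the study's methods), 8 to 10 weeks old at the start, in 3 groups of 3 poly(A) RNA libraries. Control mice are labelled as controls and untreated, a treatment label that the HN mice share, and the sources used here do not say whether they received a vehicle. HN (hyperuricemic nephropathy) mice were fed potassium oxonate at 2.4 g/kg mixed with 0.16 g/kg of adenine every other day for 4 weeks. The oxonate raises urate and the adenine injures the tubules. PEC mice received the same feed together with oral pectolinarigenin, a plant flavonoid, at 25 mg/kg daily over the same 4 weeks, so the drug was given while the injury formed and not after it. The study kept 8 mice per group, and the labels do not say that each library is 1 mouse, so p-values measure the spread between these libraries. All Control titles carry the words used for the HN mice, and their group was taken from the disease state and treatment labels.

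An inflammasome is assembled in 2 steps in macrophages and other cells. A priming signal through NF-kappa B raises the mRNA of the sensor NLRP3 and of pro-IL-1 beta. A second signal, such as crystals, ATP or loss of potassium from the cell, then lets NLRP3 bind the adaptor ASC (gene Pycard), which gathers and activates caspase-1 (Casp1). Caspase-1 cuts the precursors of IL-1 beta (Il1b) and IL-18 (Il18), and it cuts gasdermin D (Gsdmd), whose free end forms pores in the membrane and leads to pyroptosis. Caspase-4, called caspase-11 in mice, senses lipopolysaccharide inside the cell and cuts gasdermin D directly. IL-1 alpha (Il1a) acts on the same receptor as IL-1 beta, and the IL-1 receptor antagonist (Il1rn) occupies that receptor without a signal. The thioredoxin-binding protein TXNIP links sugar and redox state to NLRP3. Cutting and pore formation take place in the protein and were not measured by these mRNA data.

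The 9 libraries held 57714111 to 81069646 counts each. Values per library are CPM after scaling by the trimmed mean of M values (TMM), and group values are mean ± SD with n = 3. The TMM factors were 0.778 to 0.832 in Control, 1.15 to 1.22 in HN and 1.02 to 1.05 in PEC, and the share of counts from mitochondrial genes was 12.9 to 16.3%, 6.01 to 6.34% and 10.3 to 13.6% respectively. With library totals in place of TMM, the median of all tested genes shifted to 0.56 on the log2 scale in HN against Control, -0.21 in PEC against HN and 0.40 in PEC against Control, and the share of calls that were higher moved from 54.5 to 85.7%, from 46.8 to 29.6% and from 52.1 to 76.6%. Called genes differed by 1.5-fold or more with an adjusted p of 0.05 or less, by the method of Benjamini and Hochberg over all 21392 genes after edgeR's quasi-likelihood test. Every adjusted p below comes from that test, except those of the Il1rn to Il1b ratio. Shares of all tested genes given below are those with TMM, so counts with library totals cannot be read against them. The 3 comparisons share libraries: the HN libraries enter HN against Control and PEC against HN, and the Control libraries enter both comparisons with Control.

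Kidney markers were present and immune cell markers were not evenly spread. The summed CPM of 9 proximal tubule markers ran from 10924 to 12431 in Control, from 2657 to 2901 in HN and from 4626 to 7167 in PEC. The sum of 14 macrophage markers ran from 146 to 176 in Control, from 1165 to 1405 in HN and from 494 to 710 in PEC. No macrophage marker was at 0 in any group, 13 of 14 were called higher in HN than in Control (17.7% of all tested genes), and 10 of 14 were called lower in PEC than in HN (15.3% of all tested genes). Itgam, the integrin CD11b of myeloid cells, had a mean of 1.29 CPM in Control, 56.3 in HN and 19.3 in PEC. Mrc1, the mannose receptor of tissue macrophages, had means of 4.51, 75.7 and 21.4 CPM. The sum of 8 neutrophil markers ran from 5.16 to 13.6, 23.2 to 35.5 and 12.2 to 31.2 CPM, with Ly6g and Camp at 0 in Control and Ngp at 0 in HN and PEC, and that of 5 lymphocyte markers from 2.29 to 2.72, 9.90 to 14.8 and 5.79 to 7.13 CPM. In whole kidney, more cells of a type and more mRNA per cell cannot be told apart, and the part of these cells in the results below was not tested.

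In HN kidneys 9 of the 10 genes rose against Control and none fell. Among all tested genes the calls were 17.7% higher and 14.7% lower. The median difference of the 10 genes was 2.32 on the log2 scale, beside -0.00081 over all tested genes. The increases ran from 1.56-fold (Txnip) to 116-fold (Il1rn), and the genes of the NLRP3, ASC, caspase and gasdermin D chain lay between 3.55-fold and 6.63-fold. In those 9 genes every HN library lay above every Control library, a separation seen in 28.0% of tested genes. The exception was Il1a, at the lowest counts of the 10.

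**Figure D1:**
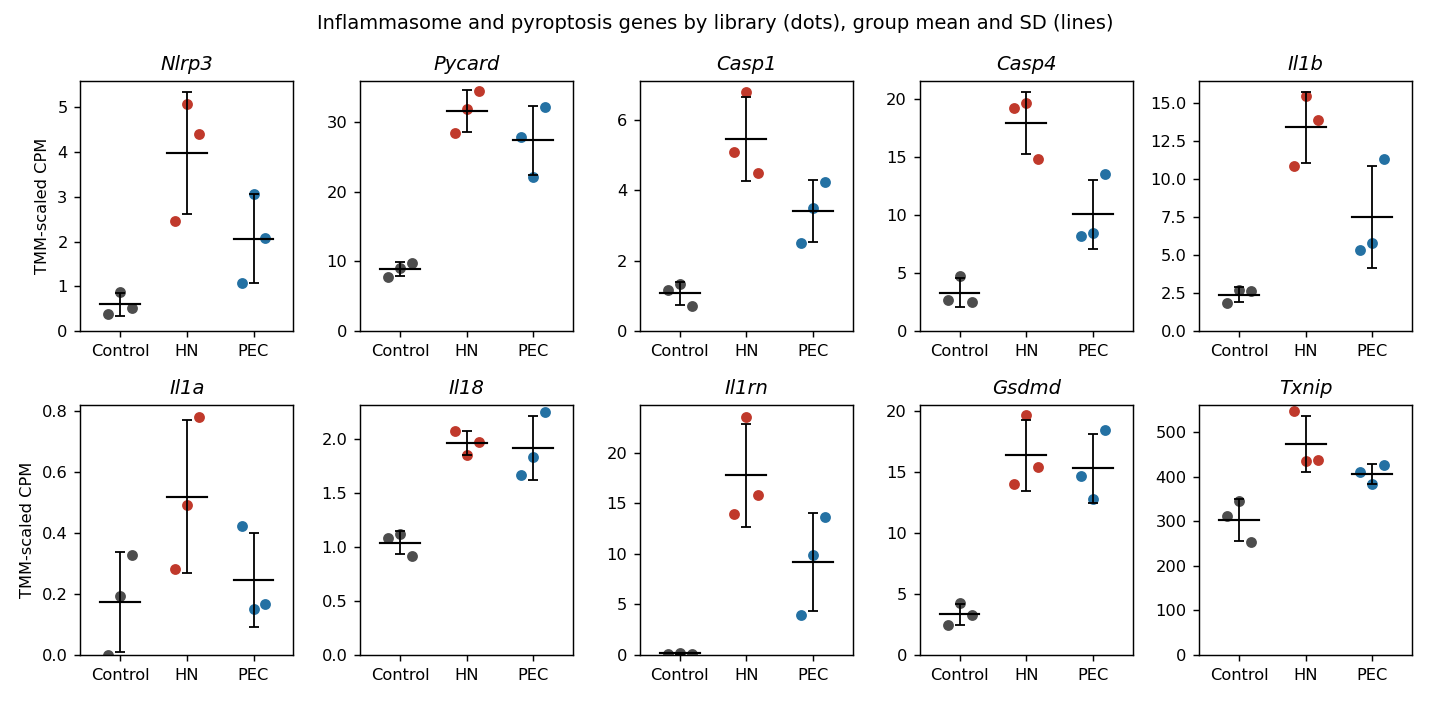
Each panel shows 1 gene: the horizontal axis gives the group, the vertical axis the TMM-scaled CPM from 0, dots stand for single libraries, and the lines for the group mean and SD. In every panel but that of Il1a the 3 HN dots lie above the 3 Control dots, and the PEC dots of Casp1, Casp4, Il1rn and Txnip lie between both groups.

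The sensor and the adaptor were both raised. Nlrp3 was at 0.389, 0.882 and 0.524 CPM in the Control libraries, at 2.46, 5.07 and 4.39 CPM in the HN libraries and at 1.07, 3.06 and 2.07 CPM in the PEC libraries. The groups HN and Control were apart, and the highest PEC library lay above the lowest HN library. Nlrp3 was 6.63-fold higher in HN than in Control (log2 fold change 2.73, SE 0.48, adjusted p = 0.00165). Pycard was measured at 7.83, 9.11 and 9.73 CPM in Control, 28.5, 31.8 and 34.4 CPM in HN and 27.8, 22.2 and 32.1 CPM in PEC. The spread within each group was small, with coefficients of variation of 10.9, 9.39 and 18.2% for Control, HN and PEC, where those of Nlrp3 were 42.5, 34.1 and 48.2%. Pycard was 3.55-fold higher in HN (log2 fold change 1.83, SE 0.15, adjusted p = 2.2e-05).

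Both caspases stand next to each other on chromosome 9 and are read from the same strand. On GRCm38, the build the table's coordinates match, Casp1 spans chr9:5298508-5307290 and Casp4 spans chr9:5308828-5336783, with 1537 bases between them. Casp1 was at 1.18, 1.33 and 0.705 CPM in Control, 5.09, 6.81 and 4.49 CPM in HN and 2.49, 3.51 and 4.24 CPM in PEC. Casp4 was at 2.71, 4.75 and 2.47 CPM in Control, 19.3, 19.7 and 14.8 CPM in HN and 8.23, 8.43 and 13.5 CPM in PEC. For both genes the 3 groups did not overlap, with Control lowest, PEC in the middle and HN highest. Casp1 rose 5.08-fold in HN (log2 fold change 2.35, SE 0.32, adjusted p = 0.000329), and Casp4 rose 5.41-fold (2.44, SE 0.30, adjusted p = 0.000201). Casp12, another gene of this cluster whose product has been tied to stress of the endoplasmic reticulum, went from a mean of 3.93 ± 0.19 to 21.8 ± 1.2 CPM and was 8.53 ± 0.61 CPM in PEC.

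Gsdmd, the pore former cut by both caspases, was at 2.48, 4.22 and 3.24 CPM in Control, 14.0, 19.6 and 15.4 CPM in HN and 14.6, 12.8 and 18.4 CPM in PEC. The HN and PEC libraries overlapped and both lay above Control. The increase in HN was 4.93-fold (log2 fold change 2.30, SE 0.23, adjusted p = 6.33e-05).

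The genes of IL-1 alpha, IL-1 beta and the receptor antagonist lie on chromosome 2, those of the 2 agonists as neighbours on the minus strand, at chr2:129299610-129309972 (Il1a) and chr2:129364570-129371139 (Il1b), and Il1rn on the plus strand at chr2:24336853-24351494. Their promoter windows are shown because in HN Il1a was the gene not called and Il1rn had the largest fold among the 10. That of Nlrp3 is shown because it is the primed sensor. Each window runs from 250 bases before to 50 bases after an annotated start, on the gene's own strand, as RefSeq gives it on GRCm38.p6. The windows are chr2:129371090-129371389 for Il1b, chr2:129309923-129310222 for Il1a, chr2:24345041-24345340 for the second of 3 starts of Il1rn, and chr11:59541319-59541618 for the second of 2 starts of Nlrp3. Both second starts were chosen with the motif matches known. Capitals mark matches to 7 motifs searched on both strands.
Il1b: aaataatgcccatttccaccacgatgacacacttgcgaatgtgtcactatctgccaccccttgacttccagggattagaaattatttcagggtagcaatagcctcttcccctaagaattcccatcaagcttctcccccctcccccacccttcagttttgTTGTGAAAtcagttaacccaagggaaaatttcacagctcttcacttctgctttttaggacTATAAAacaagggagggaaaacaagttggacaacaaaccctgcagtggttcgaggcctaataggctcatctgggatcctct
Il1a: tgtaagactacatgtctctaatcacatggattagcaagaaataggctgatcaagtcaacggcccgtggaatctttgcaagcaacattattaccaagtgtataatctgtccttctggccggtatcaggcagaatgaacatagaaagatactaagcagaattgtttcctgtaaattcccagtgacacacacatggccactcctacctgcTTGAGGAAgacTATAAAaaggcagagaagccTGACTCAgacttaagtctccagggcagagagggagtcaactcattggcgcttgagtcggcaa
Il1rn, start 2: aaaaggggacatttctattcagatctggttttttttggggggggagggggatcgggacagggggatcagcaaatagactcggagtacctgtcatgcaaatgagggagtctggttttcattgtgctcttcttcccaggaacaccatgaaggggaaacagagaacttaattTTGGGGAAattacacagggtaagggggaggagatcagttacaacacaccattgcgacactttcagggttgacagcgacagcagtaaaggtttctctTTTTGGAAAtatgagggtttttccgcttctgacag
Nlrp3, start 2: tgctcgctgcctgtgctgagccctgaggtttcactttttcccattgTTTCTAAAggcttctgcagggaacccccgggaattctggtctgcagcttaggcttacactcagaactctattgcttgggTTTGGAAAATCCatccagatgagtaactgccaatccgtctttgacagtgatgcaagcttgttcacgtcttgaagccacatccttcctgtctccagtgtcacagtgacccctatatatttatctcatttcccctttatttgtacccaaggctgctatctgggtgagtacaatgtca
The letters searched were TATAAA for the TATA box, TTNNGNAA (C/EBP), TGANTCA (AP-1), GGANTTTCC (kappa B), GAGGAAGT (PU.1), CACGTG (E-box) and GAAANNGAA (ISRE). In the Il1b window TATAAA stood at -31 and a C/EBP match at -91 from the start. In the Il1a window TATAAA stood at -32, an AP-1 match at -12 and a C/EBP match at -43. The Il1rn window held C/EBP matches at -81, 16 and 17, the last 2 overlapping each other. The Nlrp3 window held a match to the kappa B letters on the minus strand at -122, overlapping a C/EBP match at -125, and another C/EBP match at -204 on the minus strand. The window of the first Nlrp3 start held a C/EBP match at -23 and no match to the other 6 motifs. Of 32851 promoter windows of the same length, 13.6% held TATAAA, 40.7% the C/EBP letters, 7.81% the AP-1 letters and 1.25% the kappa B letters. With the wider kappa B consensus, searched after the values were seen and held by 5.81% of windows, Nlrp3 had a match at -186 from its second start, and Casp4 had matches at -93, -92 and -39 from its first start and at -104, -103 and -50 from its second. TATAAA also stood on the minus strand at -175 in the Il18 window and at 15 from the third start of Il1rn. C/EBP matches also stood at -142 in Pycard, at -127 and -138 from the first and the second start of Casp4, and at -161, -65 and -64 from the third start of Il1rn. Elsewhere among these genes, Casp1 held the E-box letters at -137 (7.15% of windows), the first start of Il1rn an AP-1 match at -141, Pycard a PU.1 match at -44 on the minus strand (3.20% of windows), and the Txnip window none of the 7. The ISRE letters, in 8.56% of windows, were in none of theirs. The table held windows for 9 of the 10 genes, all but Gsdmd. A match is a run of letters and was not tested as a site, and the counts per gene do not say which start was used.

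Il1b was at 1.87, 2.74 and 2.62 CPM in Control, 10.8, 15.5 and 13.9 CPM in HN and 5.32, 5.78 and 11.3 CPM in PEC. All HN libraries lay above all Control libraries, and PEC replicate 3 lay within the HN range. Il1b rose 5.56-fold in HN (log2 fold change 2.48, SE 0.32, adjusted p = 0.000264). Il1a was read 0, 12 and 20 times in the Control libraries, 24, 48 and 71 times in HN and 33, 10 and 10 times in PEC, where a count of 0 allows up to 3 counts, or 0.0398 CPM before scaling. The groups overlapped once scaled, and the difference between HN and Control was not detectable at this depth (log2 fold change 1.57, 95% interval -0.69 to 3.84, adjusted p = 0.249). The lncRNA Gm14023 overlaps Il1a on the other strand with 40 to 107 counts per library, and how strand was treated in counting is not given in the sources used here.

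Il18 rose less than Il1b, and the 95% intervals of their log2 fold changes in HN (0.41 to 1.42 and 1.75 to 3.20) did not overlap. Il18 was at 1.09, 1.12 and 0.918 CPM in Control, 2.08, 1.86 and 1.97 CPM in HN and 1.67, 1.84 and 2.25 CPM in PEC. HN and PEC overlapped, and both lay above Control. The increase in HN was 1.89-fold (log2 fold change 0.92, SE 0.22, adjusted p = 0.00931), from 56 to 70 counts per Control library and 177 to 181 counts per HN library. Bco2, which overlaps Il18 on the other strand, had 196 to 839 counts.

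Il1rn changed most of the 10 genes. It was read 8, 12 and 8 times in the Control libraries, 1189, 2300 and 1439 times in HN and 309, 663 and 823 times in PEC. The Control counts came to 0.130, 0.192 and 0.131 CPM, the HN counts to 13.9, 23.6 and 15.8 CPM, and the PEC counts to 3.97, 9.89 and 13.6 CPM. The 3 groups did not overlap. The fitted increase in HN was 116-fold (log2 fold change 6.86, SE 0.54, adjusted p = 1.53e-05), and it rests on 28 counts in the 3 Control libraries together.

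The antagonist was set against its agonist per length within each library, where the scaling between libraries cancels. The ratio of Il1rn to Il1b in FPKM, the deposited per-length unit, was 0.0278, 0.0278 and 0.0204 for Control replicates 2, 4 and 5. It was 0.443, 0.525 and 0.393 for HN replicates 4, 8 and 12, and 0.254, 0.594 and 0.413 for PEC replicates 1, 2 and 3. Il1rn stood at less than Il1b in every library, and the ratio was higher in all 6 HN and PEC libraries than in any Control library. On the log2 scale the ratio was 4.17 higher in HN than in Control and 3.98 higher in PEC than in Control, each with an exact two-sided permutation p = 0.1, the smallest that 3 against 3 allows (0.15 after adjustment over 3 comparisons). The deposited FPKM is listed to 2 decimals, so that Il1rn stands at 0.02 or 0.03 in the Control libraries. The ratio of counts, which is free of that rounding, was 0.0696, 0.0702 and 0.05 in Control, and differed by 4.39 in HN and 4.21 in PEC on the log2 scale. By FPKM PEC and HN overlapped, with a difference of -0.18 (exact permutation p = 0.8), which became 0.14 without PEC replicate 1.

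**Figure D2:**
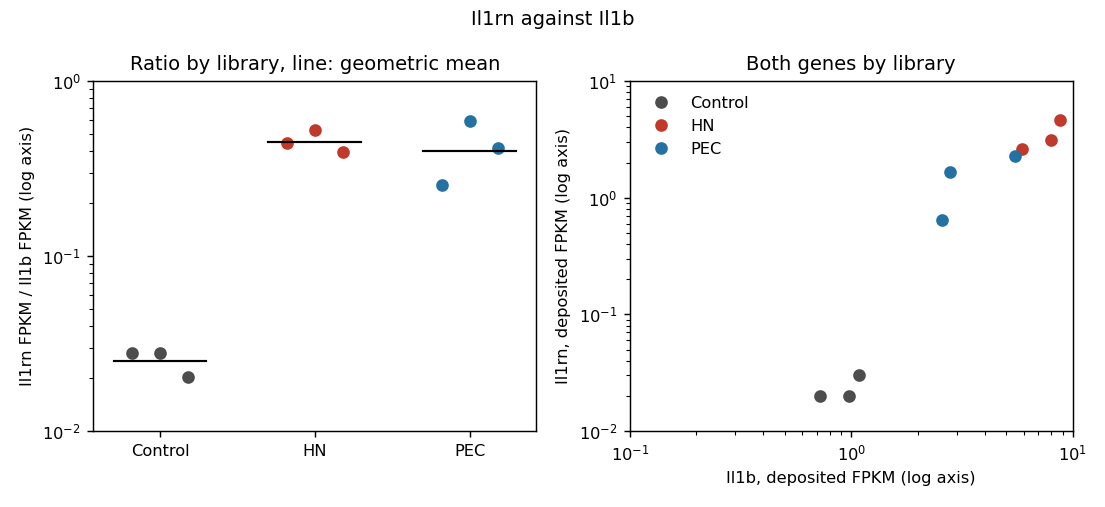
The left panel gives the ratio of Il1rn to Il1b FPKM per library on a log axis, by group, with a line at the geometric mean; the right panel sets the deposited FPKM of both genes against each other on log axes, 1 dot per library. The Control dots sit at ratios of 0.0204 to 0.0278 and all HN and PEC dots at 0.254 or above.

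Txnip was by far the most abundant of the 10 mRNAs and changed least among those called. It was at 312, 344 and 253 CPM in Control, 546, 434 and 438 CPM in HN and 411, 382 and 427 CPM in PEC. All groups were apart, in the order Control, PEC, HN. The increase in HN was 1.56-fold (log2 fold change 0.64, SE 0.13, adjusted p = 0.00405), just over the threshold of 1.5-fold. Its log2 fold change was 0.53 without Control replicate 5 and 0.53 without HN replicate 4, under the threshold in both cases. Over all alternatives run, the Txnip estimate ranged from 0.53 to 1.19. The log2 ratio of the mean deposited FPKM, without TMM, was 1.17. The antisense lncRNA Gm15441 overlaps Txnip and had 41 to 2787 counts, against up to 46594 for Txnip.

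PEC kidneys were then compared with HN kidneys, which asks how the genes stood when the drug was given along with the injury. Of the 10 genes 1 was called lower, Casp4, and none was called higher. Of all tested genes, 15.3% were called lower and 13.4% higher. Casp4 was 1.78-fold lower in PEC, with a log2 fold change of -0.83 (SE 0.29, 95% interval -1.48 to -0.19, adjusted p = 0.0455). The call lay close to the threshold. It was lost without Control replicate 2 (adjusted p = 0.0521), HN replicate 4 (0.115), HN replicate 8 (0.122), HN replicate 12 (0.0525), PEC replicate 1 (0.133) and PEC replicate 2 (0.126), with log2 fold changes from -1.08 to -0.71 over all libraries left out, and with gene GC content removed from the fit it was -0.48 (adjusted p = 0.238). With dependence on gene length removed, Casp4 lost its call (-0.79, adjusted p = 0.0557) and Il1b was called lower (-1.01, adjusted p = 0.0266).

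The other 9 genes missed the threshold, and their intervals set what these libraries can say. Il1b was 1.79-fold lower on average (log2 fold change -0.84, 95% interval -1.53 to -0.16, adjusted p = 0.0541). Without PEC replicate 3, the library in which it was highest, the difference was -1.25 (adjusted p = 0.004). Il1rn differed by -0.96 (interval -1.85 to -0.07, adjusted p = 0.0846), and by -1.34 without PEC replicate 3 (adjusted p = 0.0291). For Casp1 the difference was -0.68 (interval -1.35 to -0.01, adjusted p = 0.102), and for Nlrp3 it was -0.95 (interval -1.96 to 0.07, adjusted p = 0.127). All these intervals reach past a 2-fold reduction.

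Pycard, Gsdmd, Il18 and Txnip had smaller differences and narrower intervals. Gsdmd differed by -0.10 (interval -0.60 to 0.40, adjusted p = 0.758), Il18 by -0.04 (interval -0.53 to 0.46, adjusted p = 0.916), Pycard by -0.21 (interval -0.54 to 0.13, adjusted p = 0.309) and Txnip by -0.22 (interval -0.52 to 0.08, adjusted p = 0.229). For these 4 genes the intervals do not reach a 2-fold change in either direction. The sign of the Gsdmd and Il18 differences turned when single libraries were left out, as it did for Il18 after removal of GC content. Il1a differed by -1.06, with an interval from -3.27 to 1.15. In Casp1, Casp4, Il1rn and Txnip every PEC library lay below every HN library, which was so in 29.1% of tested genes.

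**Figure D3:**
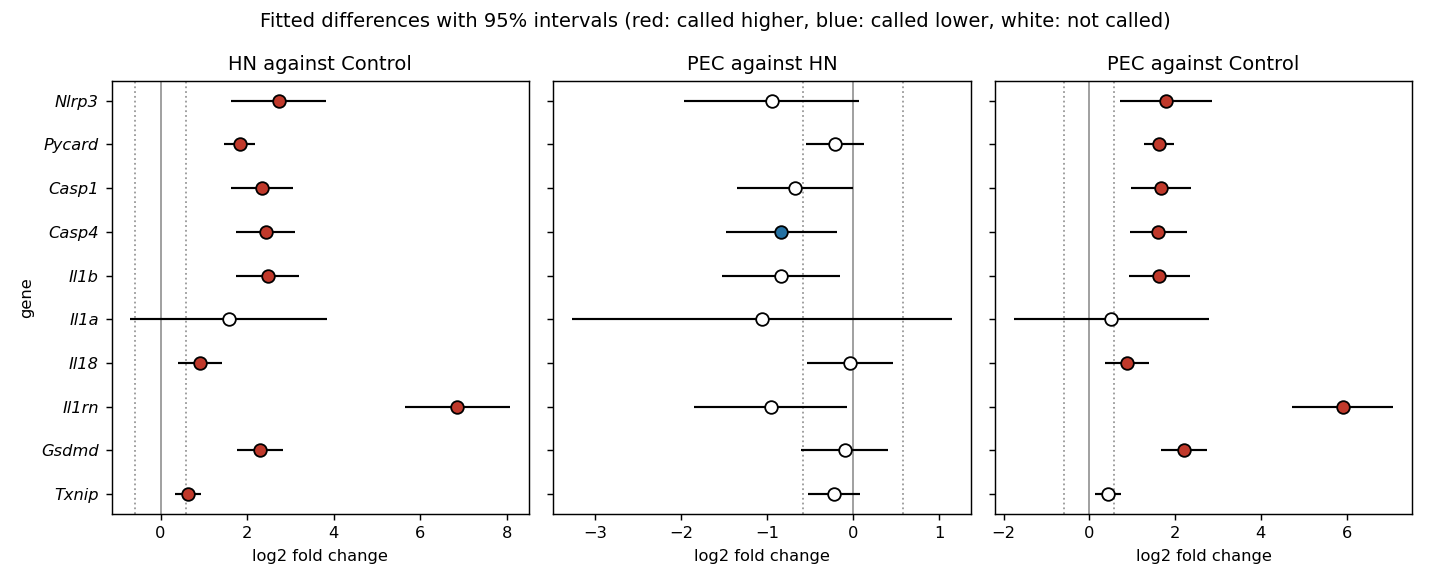
Each panel gives 1 comparison: dots are fitted log2 fold changes of the 10 genes, bars their 95% intervals, dotted lines a change of 1.5-fold either way, and red, blue and white mark genes called higher, called lower and not called. In the middle panel all 10 dots lie at or left of 0 and only that of Casp4 is blue; the panels have different horizontal scales.

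PEC replicate 3 was the highest PEC library for 8 of the 10 genes, Nlrp3 and Il1a being the exceptions, and PEC replicate 1 was the lowest for 6. Macrophage markers were ordered alike, with sums of 494, 606 and 710 CPM in PEC replicates 1, 2 and 3. Neutrophil markers had the same order (12.2, 15.4 and 31.2 CPM), and proximal tubule markers were lowest in PEC replicate 3 (4626 CPM, against 6507 and 7167). Among the Control libraries, replicate 4 was highest for 8 genes and also had the highest macrophage sum, 176 CPM against 146 and 155, and the highest neutrophil sum, 13.6 CPM against 7.10 and 5.16. HN replicate 8 was highest for Nlrp3, Casp1, Casp4, Il1b, Il1rn and Gsdmd, with a macrophage sum of 1405 CPM. HN replicate 4, with the next highest sum (1323 CPM), was lowest for 6 genes, and HN replicate 12, with the lowest sum (1165 CPM), was highest for Pycard and Il1a, so in HN the order of the sums was not that of the genes. Neutrophil sums in HN were highest in replicate 4 (35.5 CPM) and lowest in replicate 8 (23.2 CPM). Lymphocyte sums were highest in Control replicate 2 (2.72 CPM), HN replicate 8 (14.8 CPM) and PEC replicate 2 (7.13 CPM). The part of cell content in these differences was not tested.

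Against Control, 8 of the 10 genes were higher in PEC and none was lower. Of all tested genes, 18.9% were called higher and 17.4% lower. The median of the 10 genes was 1.63 on the log2 scale, beside 0.04 over all tested genes. Il1rn was 59.9-fold higher (log2 fold change 5.90, SE 0.53, adjusted p = 3.73e-05) and Gsdmd also higher (log2 fold change 2.20, SE 0.23, adjusted p = 8.99e-05). Nlrp3, Casp1, Il1b, Pycard and Casp4 lay between 3.04-fold and 3.44-fold, with adjusted p from 4.99e-05 (Pycard) to 0.0129 (Nlrp3). Il18 was 1.84-fold higher (adjusted p = 0.0105). Txnip passed the test at 1.34-fold, under the fold threshold (log2 fold change 0.42, SE 0.13, adjusted p = 0.0276), and was called with library totals or FPKM in place of TMM. Il1a did not pass (log2 fold change 0.51, interval -1.77 to 2.79). For 9 genes, all but Il1a, every PEC library lay above every Control library, as in 29.1% of tested genes.

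Levels were compared between genes on FPKM divided by the library's TMM factor, a per-length scale. Txnip was highest in all groups, with 88.6 ± 13.2 in Control, 136 ± 19.0 in HN and 116 ± 4.9 in PEC, apart from the next gene. Pycard came next in each group, at 2.14 ± 0.24, 7.47 ± 0.67 and 6.38 ± 1.09, and overlapped the gene after it in HN and PEC. In Control the order went on with Gsdmd, Il1b, Il18 and Casp4, each of which overlapped its neighbour in that order, then Casp1, Nlrp3, Il1a and Il1rn, of which Nlrp3 overlapped Il1a and Il1a overlapped Il1rn. Il1rn was last in Control at 0.0287 ± 0.0064, was sixth in HN at 2.89 ± 0.83 and seventh in PEC at 1.47 ± 0.78, where it overlapped Il18 and Casp1. In HN the gene after Pycard was Il1b, which overlapped Gsdmd, Casp4 overlapped Il1rn, and Il18 at 1.70 ± 0.10 overlapped Casp1 at 1.56 ± 0.35. Nlrp3, at 0.878 ± 0.296 in HN and 0.448 ± 0.223 in PEC, was the lowest but Il1a in both groups. The sensor lay below its adaptor in each group without overlap.

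Each gene was also set against the macrophage markers of the same library, as a description with no test. Per 1000 CPM of summed macrophage markers, Nlrp3 ran from 2.67 to 5.02 in Control, 1.86 to 3.77 in HN and 2.16 to 5.05 in PEC, which overlapped. Il1b ran from 12.8 to 16.9, 8.20 to 11.9 and 9.53 to 16.0, and Casp4 from 15.9 to 27.0, 12.7 to 14.6 and 13.9 to 19.1. Pycard ran from 51.9 to 62.6 in Control, 21.5 to 29.5 in HN and 36.6 to 56.3 in PEC, so its HN libraries were lowest without overlap. The HN libraries were also lowest for Il18, with 1.32 to 1.69 against 5.91 to 7.44 in Control and 3.03 to 3.38 in PEC, for Txnip and for Gsdmd (10.6 to 14.0, against 17.0 to 24.0 and 21.1 to 29.6). Il1rn alone was higher in HN and PEC than in Control on this scale, with 10.5 to 16.8 and 8.04 to 19.2 against 0.844 to 1.10. The macrophage sum itself ran from 146 to 176 CPM in Control and from 1165 to 1405 CPM in HN. By construction, a gene that rose less than this sum is lower on average in HN on this scale.

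**Figure D4:**
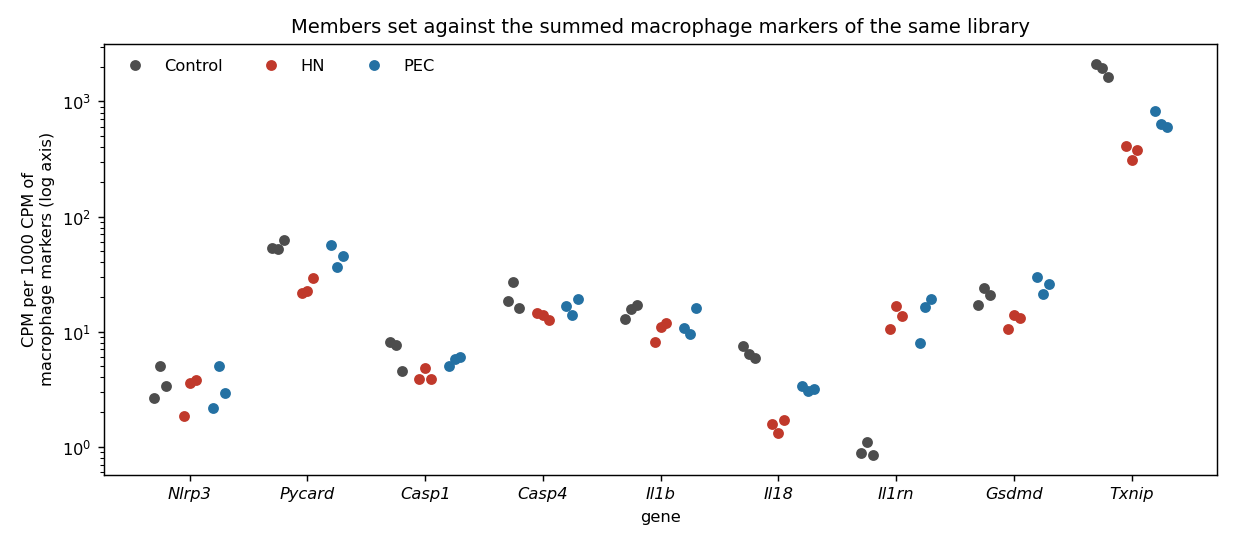
The vertical log axis gives each gene's CPM per 1000 CPM of 14 summed macrophage markers in the same library, with 1 dot per library in the colours of the groups; Il1a, at 0 in 1 library, is left out. The Il1rn dots of Control lie between 0.844 and 1.10, below all other Il1rn dots, and the HN dots of Pycard, Il18, Gsdmd and Txnip lie below those of both other groups.

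Other genes of the pathway were taken from lists by role. Of 11 other inflammasome sensors, 7 rose and 2 fell in HN, beside 17.7% and 14.7% of all tested genes. Naip1, of the family that recognises bacterial flagellin and secretion needles, was read 6 times in the Control libraries together and averaged 2.56 ± 1.16 CPM in HN. It lay under the filter's level in all Control libraries and so was tested only through HN and PEC. The Naip genes are also near-identical copies between which reads may be split. Nlrp1b, a sensor of bacterial proteases, went from 0.746 ± 0.072 to 3.65 ± 0.80 CPM and Aim2, a sensor of DNA in the cytosol, from 0.924 ± 0.045 to 4.28 ± 0.86 CPM. The 2 that fell were Nlrp6, a sensor known from epithelia, from 88.4 ± 23.5 to 19.3 ± 3.9 CPM (log2 fold change -2.20), and Nlrc4, the partner of the NAIP proteins, from 9.94 ± 3.0 to 4.61 ± 0.27 CPM (-1.11). With library totals 8 sensors rose and 1 fell. In PEC against HN Nlrp6 was higher (1.92, adjusted p = 0.00402), and Naip2 (-0.89) and Naip6 (-0.97) were lower, a count near the 15.3% of all tested genes. With library totals 4 sensors were lower, under a scaling that moved the calls over all tested genes toward lower as well.

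Of 13 tested regulators of the inflammasome, 9 rose in HN and none fell, where all tested genes gave 17.7% and 14.7%. P2rx7, the ATP receptor that opens the way for potassium loss, went from 2.08 ± 0.67 to 17.7 ± 5.3 CPM (log2 fold change 3.09, adjusted p = 0.000273), and was 7.86 ± 3.67 CPM in PEC, lower than in HN (-1.17, adjusted p = 0.0338). Panx1, a channel that releases ATP, rose by 2.89 on the log2 scale, and Gbp3, a guanylate-binding protein, by 2.84. In PEC 5 were lower than in HN, namely P2rx7, P2rx4, Kcnk6, Nfkb1 and Nek7, beside 15.3% of all tested genes. With library totals 8 were lower, but that scaling also moved the calls over all tested genes toward lower. Nek7, the kinase that NLRP3 needs to assemble, averaged 57.5 ± 7.3 CPM in Control, 66.6 ± 49.3 CPM in HN, where 1 library stood at 123 CPM against 33.9 and 42.7, and 9.60 ± 2.35 CPM in PEC. Its log2 fold change was -2.79 in PEC against HN (adjusted p = 0.0015) and -2.58 in PEC against Control (adjusted p = 0.00155).

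Of 9 other gasdermins, caspases and membrane rupture genes tested, 2 rose in HN and none fell, beside the same 17.7% and 14.7% over all genes. Casp12 was among those that rose, and the list's median was -0.39; with library totals 4 rose and the median was 0.18. In PEC against HN, Gsdme, another gasdermin, was higher (log2 fold change 1.10), and Casp12 was lower (-1.36, adjusted p = 5.89e-05). Ninj1, which ruptures the membrane after pores form, was at 75.2 ± 6.4 CPM in Control, 55.3 ± 2.1 CPM in HN and 47.8 ± 4.1 CPM in PEC. With TMM it was called lower only in PEC against Control (-0.65), with no test of a difference between these comparisons. With library totals 0 genes of this list were called lower in PEC against Control. The mean deposited FPKM of Ninj1, without TMM, was 35.5 in Control, 37.7 in HN and 28.0 in PEC.

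Most receptors of the IL-1 family rose in HN. Of the 8 receptors 7 rose in HN and 1 fell (17.7% and 14.7% over all tested genes), with a median of 2.67 on the log2 scale. Il1rl1, the receptor of IL-33, rose by 3.56, Il18rap, the second chain of the IL-18 receptor, by 3.53, and Il1r2, a decoy that binds IL-1 without a signal, by 3.18. Sigirr, which dampens these receptors, fell from 62.6 ± 5.1 to 30.1 ± 1.1 CPM, a call not made with library totals, where 7 receptors rose and 0 fell. In PEC Sigirr was higher than in HN (0.78), and Il18rap, Il1rap and Il1rl2 were lower (13.4% higher and 15.3% lower over all genes). With library totals 0 receptors were called higher and 5 lower, where the calls over all genes moved toward lower as well. Of 5 other ligands and binding proteins tested, 3 rose in HN, beside the same 17.7%. Il33, an alarmin, ran from 8.77 to 11.7 CPM over the Control libraries, 42.7 to 63.8 CPM over HN and 19.1 to 31.7 CPM over PEC, where it was lower than in HN (log2 fold change -1.0, adjusted p = 0.0072). Il1f6, now called Il36a, was read 4 times in the 3 Control libraries and averaged 12.3 ± 2.6 CPM in HN and 12.1 ± 0.9 CPM in PEC. Il1f9, now Il36g, was read 19 times in the Control libraries together, rose by 3.43 and was lower in PEC than in HN (-1.73, adjusted p = 0.0323). Il1f6 and Il1f9 lay under the filter's level in all Control libraries. These 2 of the 3 rises were therefore tested only through the HN and PEC libraries. Il18bp, which traps IL-18, was called higher with TMM and edgeR only in PEC against Control (2.27), where 1 library stood at 28.0 CPM beside 6.22 and 9.99. That this differs between comparisons was not tested. With library totals 4 of these 5 genes were called higher in HN, and with DESeq2 1 was called higher in PEC against HN.

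Of 11 signalling adaptors and kinases 3 rose in HN and none fell, beside 17.7% and 14.7% over all tested genes, and the median was -0.02 on the log2 scale, or 0.55 with library totals, about the shift of all genes. The 3 were Irak3 (1.52), a brake on IL-1 signals, Myd88 (1.02), the first adaptor, and Irak4 (0.71), its kinase. Irak3 and Tab3 were lower in PEC than in HN, beside 15.3% of all tested genes. Irak3 and Myd88 each overlap a gene with more counts on the other strand, Tmbim4 and Acaa1a. Of 11 genes that IL-1 is known to induce, 10 rose in HN, all but Ptgs2 (17.7% over all tested genes), with a median of 4.17. Vcam1, an adhesion molecule for leukocytes, went from 14.3 ± 1.5 to 358 ± 49 CPM, and Cxcl2, a neutrophil chemokine, from 0.167 ± 0.065 to 5.91 ± 1.46 CPM. Il6 had no count in the Control libraries and averaged 0.924 ± 0.341 CPM in HN, at least 56.1-fold higher when Control is set to 3 counts over the group. Without a Control count, Il6 could pass the filter only through the HN and PEC libraries. Vcam1 (-0.84, adjusted p = 0.00223) and Nfkbia (-0.69) were lower in PEC than in HN, and the other 9 were not called. That count lies near the 15.3% called lower over all tested genes. These genes also answer to other signals, such as TNF.

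Of 10 relatives, partners and regulators of Txnip, 1 rose in HN and 4 fell, against those same shares over all genes. Arrdc4, the closest relative of Txnip in sugar response, rose from 13.5 ± 2.3 to 39.2 ± 6.0 CPM (log2 fold change 1.54). Mlxipl, which codes for the sugar-sensing factor ChREBP that drives Txnip, fell from 113 ± 1.9 to 37.7 ± 5.3 CPM (-1.59, adjusted p = 9.6e-06) and was 145 ± 12.5 CPM in PEC, higher than in HN (1.94, adjusted p = 1.75e-05). Txn2, the mitochondrial thioredoxin, followed the same course (-0.92 in HN, 0.96 in PEC against HN), and Mlx and Txnrd2 fell in HN. With library totals 1 gene of the list was called lower and 1 higher, and the median of the list went from -0.50 to 0.05. Arrdc2 was the other gene called higher in PEC against HN, where 13.4% of all tested genes were called higher.

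**Figure D5:**
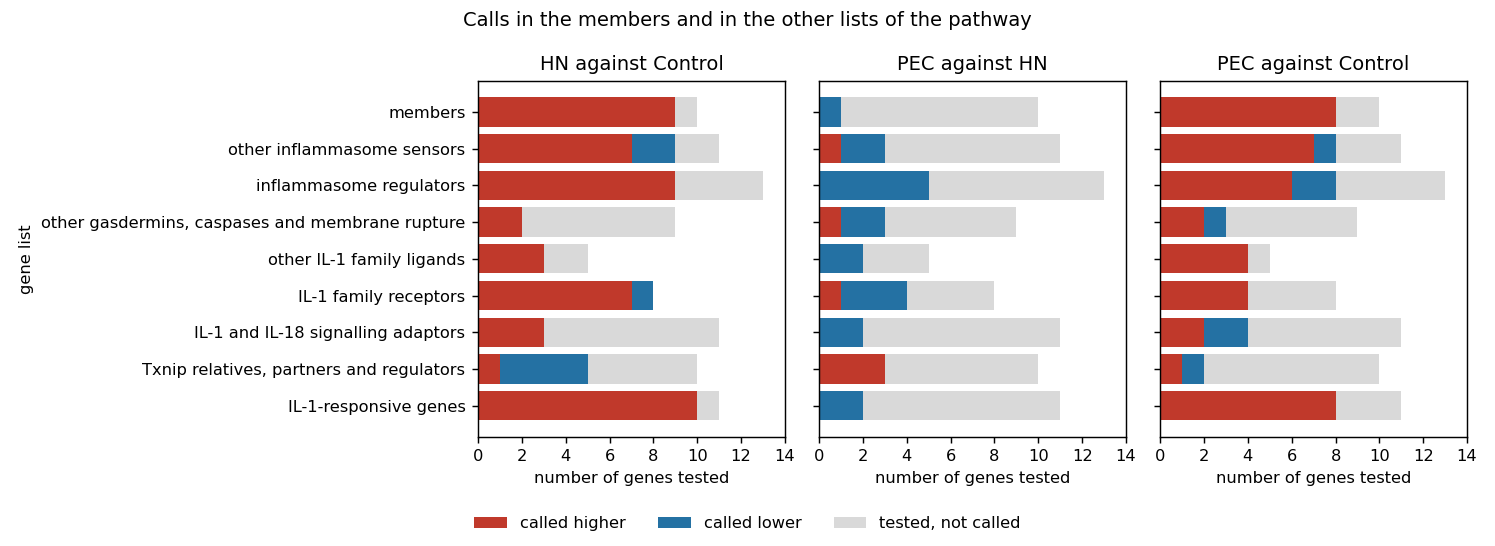
Bars give the number of tested genes per list, split into called higher (red), called lower (blue) and not called (grey), with 1 panel per comparison. In HN against Control red leads in the members, sensors, regulators, receptors and IL-1-responsive genes, and the Txnip list has 4 blue of 10; of all 21392 tested genes, 14461 were not called in that comparison.

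The genes whose pattern over the 9 libraries was most like that of 4 members were found among all tested genes by Pearson's r of log2(CPM + 1). These values pool the 3 groups and so follow the differences between them. For Nlrp3 they were Aldh1b1 (0.988), Pkmyt1 (0.979) and Jazf1 (0.974). For Il1b they were H2-M3 (0.992), Hk3 (0.985) and Slc2a6 (0.984). For Il18 they were AA467197 (0.987), Ecscr (0.986) and Nasp (0.985), and for Txnip Pprc1 (0.991), Itga3 (0.984) and Fam129b (0.976). The number of genes with r over 0.9 was 332 for Nlrp3, 1032 for Il1b, 978 for Il18 and 371 for Txnip.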

How the data were processed

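Kidney poly(A) RNA was sequenced in 9 libraries. The authors deposited 1 table of 55385 genes with raw read counts and FPKM per library. The submitters' notes name Bowtie 0.12.2 with mm8 and mm9, yet the coordinates match GRCm38 (51954 of the 55144 genes shared with GENCODE M21 were identical); the counting tool is not given in the sources used here. Counts as deposited were fitted with edgeR 4.0.16 (R 4.3.3, filterByExpr with a minimum count of 10, TMM, glmQLFit and glmQLFTest) in 1 model over the 3 groups, after the script was tested on simulated data. Genes were called at 1.5-fold (the study's threshold) and 0.05 after Benjamini-Hochberg adjustment. Standard errors were derived from log2 fold change and F. The Il1rn to Il1b ratio used an exact permutation test (scipy 1.17.1). Alternatives were other size factors, DESeq2 1.42.0, limma 3.58.1 on log2(FPKM + 1) and log2(FPKM + 0.1) with a mean of at least 0.5, other filters and thresholds, a correction for length or GC, and each library left out. Limits from counts of 0 cover counting error only. The members and lists were chosen with earlier results of these data known. Named were all 10 members, the 3 called genes of each list with the largest change in HN, genes behind counts of 3 or fewer, and the 3 genes most like 4 members; further list genes were named after their values were seen. The values of some list genes are not reported here.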

Additional observations from a re-analysis of the deposited data

How the results depend on the processing

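The count of members called in HN against Control stayed at 7 to 9 and in PEC against Control at 7 to 9 under all alternatives run. In PEC against HN it was 1, and became 4 with library totals, 3 with DESeq2, 3 with limma on log2(FPKM + 1), 4 with log2(FPKM + 0.1), 4 at an unadjusted p, and 0 with no filter, with a mean CPM of at least 1, at a fold of 2 and with GC removed. With gene length dependence removed it stayed at 1, but the gene was Il1b and not Casp4. Leaving out 1 library gave 0 to 3. Over all tested genes, a fold of 2 left 3594 calls of 6141 in PEC against HN and 5102 of 7784 in PEC against Control, where limma on log2(FPKM + 1) gave 5066; a higher threshold passes fewer genes by construction, and the other causes were not tested. Signs that turned were Il18 in PEC against HN (0.017 with a mean CPM of at least 1, 0.304 with GC removed, -0.140 to 0.055 without 1 library), Gsdmd in PEC against HN (-0.228 to 0.054), Il1a in PEC against Control (-0.138 to 1.349) and the Il1rn to Il1b ratio in PEC against HN (-0.476 to 0.137). Il18 lost its calls against Control at a fold of 2, as did Txnip in HN, and Nlrp3 in PEC against Control with limma on log2(FPKM + 1). Il1a could not be tested with limma or with a mean CPM of at least 1. No paired analysis was possible because the groups share fewer than 2 replicate numbers. The precision for Il1a and for the Control level of Il1rn is limited by their low counts.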
